A study of Mus musculus with 23 samples.

Results

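The 10 genes described here were the mouse immunoglobulin constant region genes Igha, Ighm, Ighg1, Ighg2b, Ighg2c, Ighg3, Igkc, Iglc1 and Iglc2, together with Jchain. They are 10 of the 22314 genes quantified in the mouse footprint libraries. The genes were chosen by their estimated read counts in the mouse footprints of both genotypes. Their levels in mice and the difference between the genotypes are therefore given as a description. They entered the fit over all genes, but nothing is read from their own calls there.

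Ribosome-protected fragments, called footprints below, were sequenced from ribosomes pulled down through an HA tag on the ribosomal protein RPL22. The mouse libraries came from the small intestine of 3 C57BL/6 mice labelled Lgr5Cre.ERT2.RPL22.HA, called WT, and 3 labelled Lgr5Cre.ERT2.Rptor.fl/fl.RPL22.HA, called Rptor fl/fl. Both genotypes carry the Cre driven from Lgr5, a gene of intestinal stem cells, and the inducible tag, and the floxed Rptor allele is the difference between them. The background without immune tissue came from intestinal organoids with VillinCre.ERT2: 6 footprint libraries (3 labelled VillinCre.ERT2.Rptor.fl/fl.RPL22.HA and 3 VillinCre.ERT2.RPL22.HA under stem cell enrichment, SCe) and 11 RNA-seq libraries. The RNA-seq libraries were 2 lines of VillinCre.ERT2.RPL22.HA (WT) and 2 of VillinCre.ERT2.Rptor.fl/fl with 2 technical libraries each, and 3 SCe lines. The labels call the mice and the WT and Rptor fl/fl organoids untreated, whereas the methods describe tamoxifen induction. They give a shorter time from tamoxifen to sampling for the Lgr5Cre mice than for the VillinCre animals. An extra set of VillinCre Rptor fl/fl animals is described as induced in vitro. The SCe medium was supplemented, with valproic acid among the additions. Per the methods the mice were adults of both sexes, and the labels do not give the age or sex of each. By design the tag is limited to Lgr5-positive stem cells at the crypt base, so the pulldown is meant to leave out the ribosomes of other cells, plasma cells included. No RNA-seq of the mice was analysed here. Rptor encodes Raptor, an essential part of the kinase complex mTORC1.

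Each antibody is built from heavy chains and light chains, and the constant region of the heavy chain sets its class: Igha gives IgA, Ighm gives IgM, and Ighg1, Ighg2b, Ighg2c and Ighg3 give the IgG subclasses. A light chain is either kappa, with the constant region Igkc, or lambda, with Iglc1, Iglc2 or Iglc3, and the J chain joins IgA or IgM units into the polymers that the epithelial receptor Pigr carries into the gut lumen. In the intestine these chains are made mainly by IgA plasma cells of the lamina propria, not by the epithelium.

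Whether reads can be assigned to one member depends on its sequence, and the stretches on which the assignment turns are shown here from GENCODE vM21 (build GRCm38, minus strand). Igha and Ighm are each made in a secreted form and in a membrane form that share most of the coding sequence. In the following 30-base stretches the shared bases are in lower case and the bases that belong to one form are in capitals. The secreted stretches lie at chr12:113258812-113258841 and chr12:113420911-113420940, and the membrane stretches continue across a splice junction into the exon of the membrane tail.
Igha, secreted: accgtctgtcggGTAAACCCACCAATGTCA
Igha, membrane: accgtctgtcggAACGTCAAGAGCCACTTT
Ighm, secreted: acaagtccactgGTAAACCCACACTGTACA
Ighm, membrane: acaagtccactgAGGGGGAGGTGAATGCTG

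Only 62 of the 1034 coding bases of secreted Igha, and 197 of the 1169 of membrane Igha, were particular to their form. For Ighm the form-specific parts were 62 and 125 bases. A further 3 stretches show where the lambda constant regions differ from each other, with each position that is not the same in the 3 genes in capitals, at chr16:19061962-19061991 for Iglc1, chr16:19198743-19198772 for Iglc2 and chr16:19065572-19065601 for Iglc3.
Iglc1: tgtACgatCAcTGaTttCtAcccAGgtgTG
Iglc2: tgtCTgatTTcCAaCttTtCcccGAgtgGT
Iglc3: tgtCTgatTTcCAaTttTtCcccAAgtgGT

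Iglc1 differed from Iglc2 at 13 of these 30 positions, and over the aligned coding sequences the identity was 74.7%. Iglc2 and Iglc3 were 96.5% identical. No window of 28 bases, about the length of a footprint, was shared between the Iglc1 coding sequence and any other member or Iglc3. Of its 293 windows, 4 occurred in other genes, which were not identified and may include further constant region genes. In contrast, 35.7% of the windows of Iglc2 also occurred in Iglc3, so reads on that pair are uncertain. Igha, Ighm, Igkc and Jchain shared no window with any other gene. The IgG genes shared between 1.58% (secreted Ighg1) and 21.8% (membrane Ighg2b) of their windows with each other, and their single values are uncertain to that extent.

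The mouse libraries held between 772077 and 5337092 assigned footprints in WT and between 3085617 and 8238388 in Rptor fl/fl mice, so WT mouse 1 is the least precise. Rptor itself was at 41.5, 39.5 and 44.5 CPM (counts scaled to a common library total, with library sizes from the trimmed mean of M values) in WT and at 32.5, 34.3 and 36.7 CPM in Rptor fl/fl mice, a log2 fold change of -0.28 (SE 0.12, edgeR quasi-likelihood test, Benjamini-Hochberg adjusted p = 0.15). The floxed gene was lower in each Rptor fl/fl library, but its difference did not pass the threshold of 0.05. Lgr5 stood at 45.6 CPM in Rptor fl/fl mouse 1 against 6.29 to 11.3 CPM in the other 5 mice, so that library stands apart for the gene that drives the Cre. Without it, the log2 fold changes of the members were -0.24 for Igha, -0.45 for Jchain, -3.27 for Iglc1 and 0.23 for Igkc.

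The members took 1.70%, 1.70% and 1.83% of all assigned footprints in WT mice 1 to 3 (1.74% ± 0.0746, SD, n = 3) and 1.50%, 1.53% and 1.43% in Rptor fl/fl mice 1 to 3 (1.49% ± 0.0522, SD, n = 3). The share was lower in all 3 Rptor fl/fl mice and the groups did not overlap. The 95% Wilson interval was widest in WT mouse 1, from 1.67% to 1.73%, and covers counting error only. Igha alone made up between 65.8% and 70.3% of the member reads in WT and between 59.6% and 64.0% in Rptor fl/fl mice. In footprints from a pulldown of pooled cells, fewer cells of a type, less RNA per cell and fewer ribosomes per RNA cannot be told apart.

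**Figure D1:**
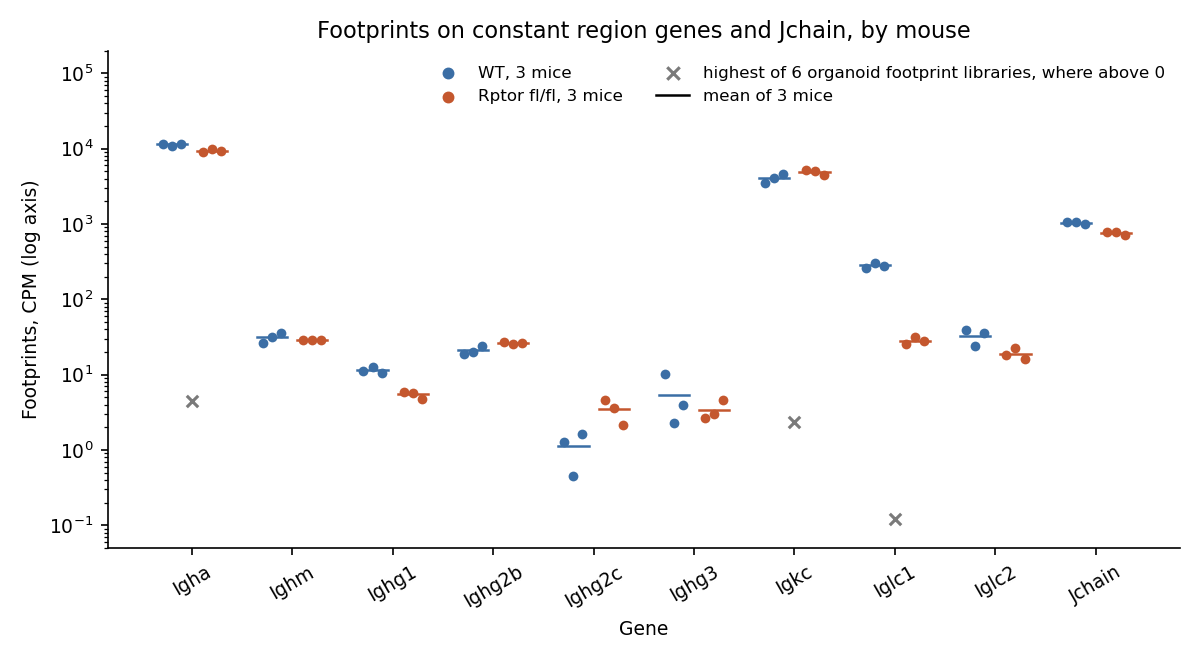
Footprints on each member in CPM (log axis) for 3 WT mice (blue) and 3 Rptor fl/fl mice (orange), with short lines at the mean of 3 mice and grey crosses at the highest of the 6 organoid footprint libraries where it is above 0. Iglc1 lies near 281 CPM in WT and near 28.1 CPM in Rptor fl/fl mice, whereas the other members lie close together in both genotypes or are rare.

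Among the heavy chains, Igha dominated both genotypes. Igha was at 11580, 11026 and 11647 CPM in WT mice and at 9061, 9844 and 9462 CPM in Rptor fl/fl mice. Its 3 WT values lay above all 3 Rptor fl/fl values, with a log2 fold change of -0.27 (SE 0.060). On the RPKM scale, where the reads of each transcript are divided by the kilobases of its indexed sequence and scaled to the plain library total, Igha reached 10070 ± 374 in WT and 7933 ± 243 in Rptor fl/fl mice (SD, n = 3), and made up 99.4% and 99.3% of all heavy chain constant region footprints per length.

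Ighm, the heavy chain of IgM, was far rarer, at 26.4, 31.4 and 35.8 CPM in WT and 28.9, 29.1 and 28.4 CPM in Rptor fl/fl mice. The groups overlapped and the log2 fold change was -0.19 (SE 0.14). Per length it made up 0.210% ± 0.0321 of the heavy chains in WT and 0.236% ± 0.0105 in Rptor fl/fl mice (SD, n = 3).

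The IgG heavy chains together made up 0.322% ± 0.0176 of heavy chains in WT and 0.380% ± 0.0290 in Rptor fl/fl mice (SD, n = 3). Ighg1 was at 11.3, 12.7 and 10.5 CPM in WT and 5.90, 5.76 and 4.78 CPM in Rptor fl/fl mice, with no overlap and a log2 fold change of -1.09 (SE 0.24). Ighg2b was at 18.9, 20.0 and 24.2 CPM in WT and 27.2, 25.2 and 26.2 CPM in Rptor fl/fl mice, with no overlap in the opposite direction and a log2 fold change of 0.25 (SE 0.15). Within IgG, Ighg1 therefore held 29.1% ± 4.88 in WT and 13.9% ± 1.27 in Rptor fl/fl mice (SD, n = 3), and Ighg2b 52.2% ± 9.67 and 68.2% ± 1.50. These shares rest on few reads, since Ighg1 had between 9.0 and 58.2 estimated reads per library.

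Ighg3 varied widely between WT mice, at 10.1, 2.27 and 4.00 CPM in WT and 2.62, 3.03 and 4.65 CPM in Rptor fl/fl mice. Its log2 fold change of -0.19 (SE 0.42) was smaller than its error, and the high WT value came from the shallowest library, with 8.4 estimated reads. Ighg2c had 1.1, 1.1 and 9.0 estimated reads in WT and 14.2, 11.7 and 17.1 in Rptor fl/fl mice and did not pass the count filter, so 9 of the 10 members were tested. Ighd, the constant region of IgD and no member, had 0, 9 and 16 reads in WT and 11, 10 and 25 in Rptor fl/fl mice.

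Among the light chains, Igkc was the main one in both genotypes and Iglc1 differed most between them. Igkc was at 3468, 4111 and 4680 CPM in WT and 5270, 5079 and 4498 CPM in Rptor fl/fl mice, and WT mouse 3 lay above Rptor fl/fl mouse 3. Its log2 fold change was 0.27 (SE 0.094). Per length, the light chains per 100 heavy chains stood at 92.9, 116 and 123 in WT and 167, 149 and 136 in Rptor fl/fl mice, and the groups did not overlap. The ratio depends on the length used, at 189 to 250 in WT and 277 to 341 in Rptor fl/fl mice by the deposited TPM, and at 32.4 to 42.7 and 47.7 to 58.2 by reads. The indexed sequence of Igkc in the mouse runs was 405 bases long against 323 coding bases in GENCODE vM21, and what was added is not given in the sources used here.

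Iglc1 was at 263, 303 and 279 CPM in WT mice and at 25.2, 31.2 and 27.9 CPM in Rptor fl/fl mice, from 209, 666 and 1534 reads against 77, 103 and 222. Every WT value was several times every Rptor fl/fl value, and the Rptor fl/fl level was 10.0-fold lower (log2 fold change -3.33, SE 0.10). Among 12 alternative settings the log2 fold change ranged from -3.39 to -3.27. Iglc2 was at 39.0, 24.1 and 35.3 CPM in WT and 18.03, 22.4 and 15.97 CPM in Rptor fl/fl mice, with no overlap and a log2 fold change of -0.81 (SE 0.19). Iglc3, no member but nearly the same in sequence as Iglc2, was at 0, 4.09 and 10.2 CPM in WT and 4.59, 3.94 and 6.92 CPM in Rptor fl/fl mice.

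The make-up of the light chains followed Iglc1. Lambda chains held 7.92%, 7.45% and 6.44% of the light chain footprints per length in WT mice against 0.889%, 1.09% and 1.08% in Rptor fl/fl mice (7.27% ± 0.754 and 1.02% ± 0.113, SD, n = 3). The widest 95% Wilson intervals were 7.01% to 8.93% in WT mouse 1 and 0.945% to 1.25% in Rptor fl/fl mouse 2. They cover counting error only and not the spread between mice. Within lambda, Iglc1 held 88.9%, 92.1% and 87.2% in WT mice against 53.8%, 56.3% and 57.3% in Rptor fl/fl mice.

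Jchain was at 1061, 1051 and 992 CPM in WT and 773, 778 and 724 CPM in Rptor fl/fl mice. All 3 WT values lay above the Rptor fl/fl values, and the log2 fold change was -0.45 (SE 0.068). Relative to Igha, per length, there were 17.1, 17.9 and 15.9 Jchain per 100 Igha in WT mice against 15.9, 14.7 and 14.2 in Rptor fl/fl mice (17.0 ± 1.01 and 14.9 ± 0.886, SD, n = 3). WT mouse 3 and Rptor fl/fl mouse 1 met at the border, so this ratio separated the genotypes less than Jchain itself.

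**Figure D2:**
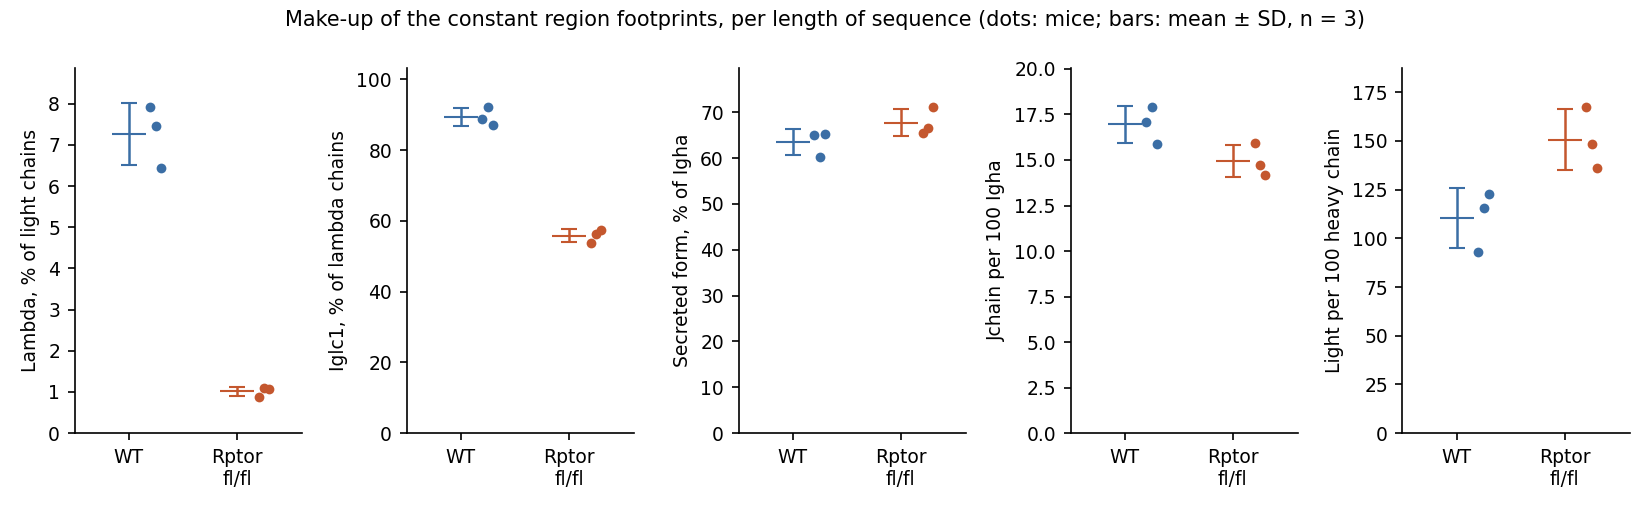
Make-up of the constant region footprints per length of sequence in WT (blue) and Rptor fl/fl (orange) mice: dots are single mice, bars are the mean ± SD of 3 mice, and the panels show, from left to right, lambda as a percent of light chains, Iglc1 as a percent of lambda chains, the secreted form as a percent of Igha, Jchain per 100 Igha, and light chains per 100 heavy chains. The largest contrast is the lambda share, at 7.27% in WT and 1.02% in Rptor fl/fl mice.

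The quantification split the Igha reads between the secreted and the membrane form shown above. Per length, the secreted form held 65.0%, 60.2% and 65.2% of Igha in WT and 65.5%, 66.6% and 71.1% in Rptor fl/fl mice, so the groups nearly touched. For Ighm the secreted form held 0%, 8.28% and 16.5% in WT and 46.2%, 34.9% and 27.97% in Rptor fl/fl mice, from 21 to 226 reads per library. Most reads fall on bases that both forms share, so these shares are estimates of the quantification model and not counts of form-specific reads.

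On the RPKM scale, the order of the members was the same at the top in both genotypes. Igkc (10370 ± 1547 in WT, 11900 ± 1086 in Rptor fl/fl mice) and Igha (10070 ± 374 and 7933 ± 243) led, followed by Jchain (1706 ± 58.3 and 1185 ± 56.0), all SD with n = 3. In WT mice Igkc and Igha did not differ beyond their spread on this scale, whereas in CPM, with no division by length, Igha lay above Igkc in every library. Iglc1 came next at 720 ± 48.3 in WT and 68.0 ± 6.52 in Rptor fl/fl mice, and in the latter it lay close to Iglc2 at 41.4 ± 7.90. Ighm (21.3 ± 3.30 in WT) and Ighg2b (16.9 ± 2.55) did not differ beyond their spread, and Ighg1, Ighg3 and Ighg2c were below them.

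Set against all genes, 13.4% of the 11515 genes tested in the mouse footprints passed an adjusted p of 0.05, 861 of them higher and 687 lower in Rptor fl/fl mice, and 31.1% had groups that did not overlap. Of the 9 members tested, Igha, Jchain, Iglc1, Iglc2 and Ighg1 were on the called side, all of them lower, and 6 had no overlap. Igkc, which was higher, joined them in 4 of 12 alternative settings, and Ighg1 and Iglc2 each left in 2. Since the members were chosen with these values in view, nothing is read from that count. The median log2 fold change was -0.27 over the 9 members and -0.02 over all genes.

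**Figure D3:**
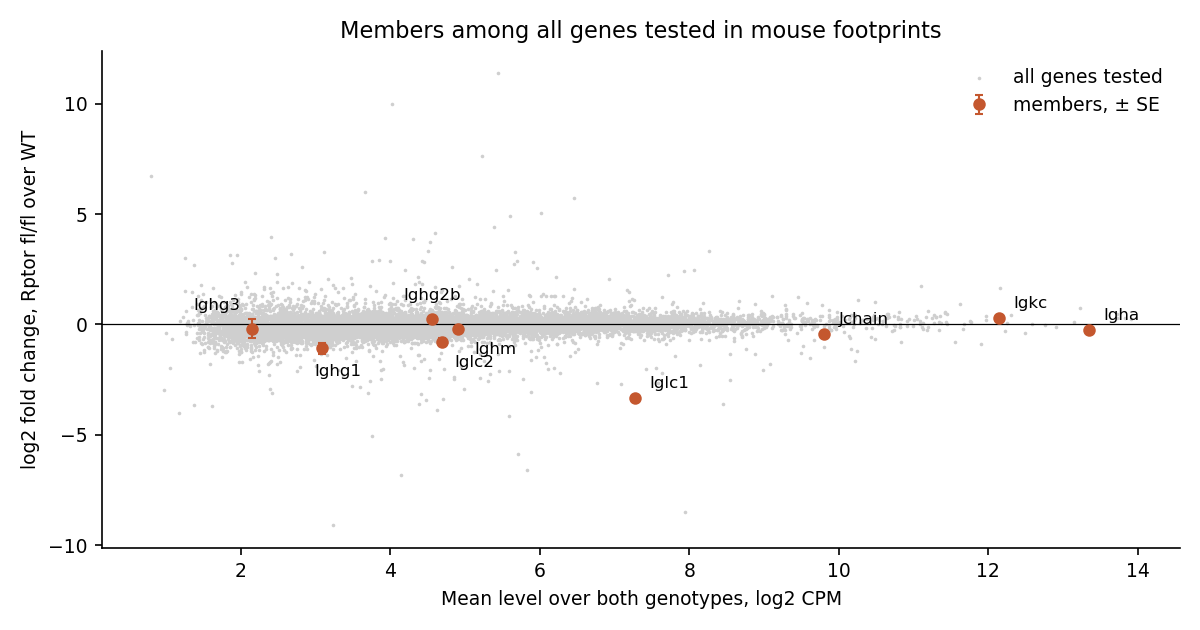
The log2 fold change of Rptor fl/fl over WT mice against the mean level in log2 CPM for all genes tested (grey) and the 9 tested members (orange, bars are ± SE). Iglc1 lies at -3.33, Ighg1 at -1.09 and Iglc2 at -0.81, while Igha, Jchain and Igkc, the most abundant members, lie between -0.45 and 0.27.

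The variable regions show how alike the libraries of a genotype were. Over the V genes, chosen after their values were seen, the chi-square per degree of freedom between libraries was 3.92 to 12.5 within WT, 3.60 to 8.03 within Rptor fl/fl and 58.7 to 197 between the genotypes. Over genes other than immunoglobulin genes it was 1.51 to 3.13, 2.13 to 6.30 and 5.61 to 18.5, and between technical RNA-seq libraries of the same organoid line it was 2.03 to 4.67. The measure is not scaled for depth and can rise with the reads per gene. The RNA-seq libraries were deeper than the mouse libraries, so ranges from different assays or gene sets are not directly comparable. These values do not show whether the 3 libraries of a genotype came from separate animals. They were kept as 3 samples each, as labelled, so each n, SD and p-value measures the spread between libraries, which may be technical, and the genotype cannot be told apart from anything else that the mice of one genotype shared. Iglv1, a lambda variable gene, was at 331, 339 and 307 CPM in WT and 72.8, 85.5 and 58.3 CPM in Rptor fl/fl mice, and 107 of the 156 V genes tested passed the threshold (47 higher, 60 lower).

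The organoid libraries, grown from epithelium, held almost none of these reads. Igha had 0 reads in all 11 RNA-seq libraries of 23802944 to 67598878 reads, where 3 reads, the limit that a count of 0 allows, correspond to at most 0.126 CPM. Ighm, Ighg1 and Igkc had at most 1 read in any RNA-seq library and Ighg2b, Ighg2c, Ighg3, Iglc1 and Iglc2 had 0. Jchain had 0 to 2 reads in 10 of them and 9 reads in SCe line 2. In the 6 footprint libraries, Igha had 27, 12 and 11 reads in those labelled Rptor fl/fl and 0, 0 and 9 in SCe, and Igkc had 14, 4 and 3 against 0, 0 and 0. Iglc1 had 1 read in one library, and Jchain, Ighm, Iglc2 and the IgG genes had none.

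In CPM of the plain total, the highest organoid footprint level of Igha was 4.51 against 8955 in the lowest mouse, which is 1988-fold higher in the mouse. For Jchain, with 0 reads in all 6 organoid footprint libraries, the lowest mouse level was at least 258-fold higher than 3 reads in the shallowest organoid library. For Ighg1 the lowest mouse level, 4.56 CPM, was at least 1.68-fold higher than that limit, and Ighg2c and Ighg3 were too rare in mice for the limit to separate them from organoids. The reference sequences differed slightly in length between the mouse and organoid runs, so these folds are set across tables that were made separately.

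Markers of the cells that make and carry immunoglobulin were then compared, as genes outside the 10 with their own tests. Among 14 plasma cell genes, 12 were tested, and 1 fell and 2 rose past the threshold. By sign alone, 9 of the 12 were lower and 3 higher, and 6 had groups that did not overlap. Over all genes tested in mice, 13.4% passed and 31.1% had no overlap, the shares to set beside this list and those that follow. Mzb1, a chaperone of antibody assembly, was at 17.6, 23.6 and 20.0 CPM in WT and 11.8, 14.2 and 13.2 CPM in Rptor fl/fl mice (log2 fold change -0.66, SE 0.17, edgeR adjusted p = 0.018). Prdm1, a transcription factor of plasma cell differentiation that gut epithelium also expresses, rose from 10.1, 13.6 and 8.91 to 22.6, 20.9 and 19.5 CPM (log2 fold change 0.99, SE 0.20, edgeR adjusted p = 0.0032). Cd38, a surface ectoenzyme, rose by 0.42 on the log2 scale (SE 0.11, edgeR adjusted p = 0.018), and was also at 110 and 107 CPM in the WT organoid RNA-seq lines. Leaving out WT mouse 3 left none of these 3 past the threshold, and with DESeq2 only Prdm1 passed.

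The other plasma cell genes did not pass. Sdc1, the plasma cell surface marker that epithelium also carries, was at 96.9, 88.6 and 94.7 CPM in WT and 81.6, 84.0 and 79.0 CPM in Rptor fl/fl mice (log2 fold change -0.19, SE 0.089, edgeR adjusted p = 0.18). Xbp1, the transcription factor of the secretory programme, had a log2 fold change of -0.14 (SE 0.089, edgeR adjusted p = 0.35). Summed over the 14 genes, the list reached 364 to 404 CPM in WT and 362 to 392 CPM in Rptor fl/fl mice, with overlapping groups. Most of that sum was Xbp1, Sdc1 and Cd38, which stood at 166, 306 and 110 CPM in the RNA-seq of WT organoid line 1. The sum is therefore not particular to plasma cells and does not show whether their number was the same.

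B cell and T cell markers showed no called gene. Of 14 B cell genes 5 were tested and 0 passed, and the summed 2591 to 2626 CPM in WT and 2500 to 2868 CPM in Rptor fl/fl mice were almost all Cd74, which other antigen-presenting cells also express. Of 13 T and NK cell genes 12 were tested and 0 passed. By sign 5 of the 12 were higher and 7 lower, and 2 had groups that did not overlap. Summed over the list they reached 374, 415 and 395 CPM in WT and 366, 369 and 361 CPM in Rptor fl/fl mice, with no overlap. Gzma was at 135, 173 and 150 CPM in WT and 133, 131 and 127 CPM in Rptor fl/fl mice, also with no overlap. Ptprc, the leukocyte marker CD45, was at 76.7, 74.5 and 84.0 CPM in WT and 90.5, 87.9 and 79.1 CPM in Rptor fl/fl mice. In the same fit 3089 of the 11515 genes had an unadjusted p under 0.05.

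Markers of other cell types moved with the genotype. The 4 haemoglobin genes tested rose, with the summed erythroid list at 153 to 177 CPM in WT and 812 to 985 CPM in Rptor fl/fl mice. They may not be 4 separate observations, since Hbb-bs and Hbb-bt had the same estimated reads in every organoid footprint library. Hbb-bs, a beta-globin, went from 88.1, 93.6 and 69.6 to 410, 450 and 495 CPM (log2 fold change 2.48, SE 0.11, edgeR adjusted p = 1.23e-09). Of 12 myeloid genes 6 rose and 0 fell, among them Cd14, a coreceptor for bacterial lipopolysaccharide, at 7.55, 8.18 and 9.27 CPM in WT and 34.4, 32.4 and 33.4 CPM in Rptor fl/fl mice (log2 fold change 1.93, SE 0.16, edgeR adjusted p = 9.1e-07). Of 12 stromal genes 6 rose, including the collagens Col3a1, Col1a1 and Col1a2, and Myh11, the smooth muscle myosin, fell. Myh11 lost its call in 7 of 12 alternative settings, Col1a2 in 6, Vim in 5 and Cdh5 in 4.

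Epithelial and stem cell markers were mixed. Of 8 epithelial genes Cdh1, Krt20 and Epcam rose and the transcription factor Cdx2 fell, of which Cdx2 lost its call in 7 and Epcam in 6 of 12 alternative settings. The summed epithelial list was 19390 to 19910 CPM in WT and 19290 to 22470 CPM in Rptor fl/fl mice. Of 14 stem cell genes 13 were tested, of which Olfm4 and Ascl2 fell and Prom1 rose. Prom1 was at 109 CPM in Rptor fl/fl mouse 1 against 57.3 and 62.6 CPM in the other Rptor fl/fl mice, and without mouse 1 its log2 fold change went from 0.65 to 0.35. The summed stem cell list was also high in that library, at 964 CPM against 632 and 595 CPM in the other Rptor fl/fl mice and 863 to 904 CPM in WT. Olfm4, a crypt base marker, went from 454, 475 and 480 to 330, 309 and 279 CPM (log2 fold change -0.63, SE 0.078, edgeR adjusted p = 6.31e-05). The 12 pancreatic acinar genes mark tissue next to the intestine. They summed to 3034 to 7064 CPM in WT, lowest in mouse 2, and to 6114 to 7497 CPM in Rptor fl/fl mice. By sign all 12 were higher in Rptor fl/fl mice, with a median log2 fold change of 0.45, and 2 of them (Cpb1 and Try5) passed the threshold. The part that a different tissue make-up may have in the member values was not tested.

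**Figure D4:**
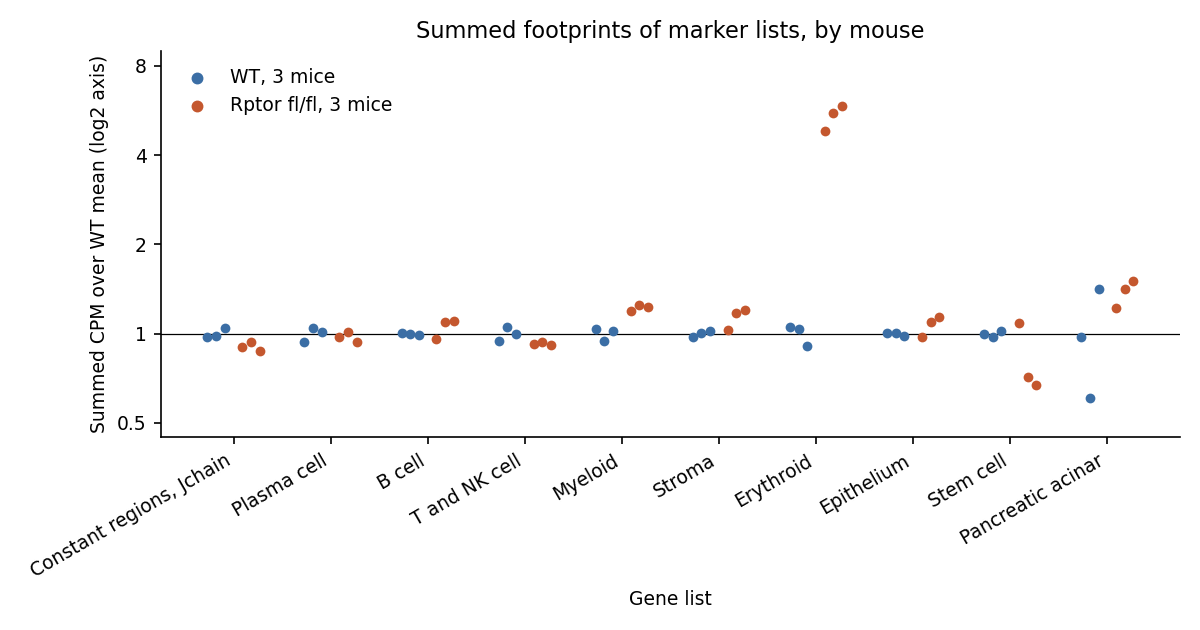
Summed footprints of each gene list in single mice, relative to the mean of the 3 WT mice (log2 axis), for WT (blue) and Rptor fl/fl (orange). The erythroid list is 4.83 to 5.86 times the WT mean in Rptor fl/fl mice, and the constant regions with Jchain lie at 0.874 to 0.935 times. The plasma cell list overlaps between genotypes and is mostly Xbp1, Sdc1 and Cd38, which the organoids also express.

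The genes that bring IgA to the lumen or support its production formed another list of 14, of which 12 were tested, 2 rose and 1 fell. Pigr, the receptor that transports polymeric IgA across the epithelium, was at 3963, 4074 and 4342 CPM in WT and 5290, 5131 and 4738 CPM in Rptor fl/fl mice. It rose in all 3 Rptor fl/fl mice (log2 fold change 0.29, SE 0.066, edgeR adjusted p = 0.0082) while Igha and Jchain were lower in the same libraries. Without WT mouse 2 or without Rptor fl/fl mouse 2 the edgeR adjusted p of Pigr was 0.052 and 0.056. Tnfsf13b, the B cell survival factor BAFF, was at 1.26, 3.64 and 4.00 against 8.85, 7.58 and 7.04 CPM (log2 fold change 1.096, SE 0.31, edgeR adjusted p = 0.028), and lost the call in 9 of 12 alternative settings. Aldh1a1, an enzyme of retinoic acid synthesis, fell by 0.39 on the log2 scale (SE 0.073, edgeR adjusted p = 0.0023). Ccl28, a chemokine for IgA plasma cells, did not pass, with a log2 fold change of 0.53 (SE 0.23, edgeR adjusted p = 0.14).

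Of 7 homing receptor genes 6 were tested and 0 passed, with Itgb7, a chain of the gut homing integrin, at 26.4, 24.5 and 21.8 CPM in WT and 20.7, 18.5 and 21.6 CPM in Rptor fl/fl mice. Of 11 receptors for immunoglobulin 9 were tested, and Fcgrt, the neonatal Fc receptor that carries IgG, rose from 69.2, 73.6 and 82.4 to 98.7, 109 and 116 CPM (log2 fold change 0.50, SE 0.10, edgeR adjusted p = 0.0037). The 35 genes of endoplasmic reticulum secretion, which fold and export antibodies and other secreted proteins, were all tested, 15 of them higher and 20 lower. Only Pdia4, Pdia6 and Manf passed, all lower, and 3 of 35 is a smaller share than the 13.4% of all genes that passed. Hspa5, the chaperone BiP, was at 1097, 1052 and 1054 against 1032, 891 and 880 CPM (log2 fold change -0.19, SE 0.075, edgeR adjusted p = 0.11). That list gave 5 called genes without Rptor fl/fl mouse 1, and 0 without WT mouse 2, WT mouse 3, Rptor fl/fl mouse 2 or Rptor fl/fl mouse 3.

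The same epithelial genes were followed in organoids, where members are near 0. In organoid RNA-seq, 22.6% of 14131 genes passed between Rptor fl/fl and WT lines. Rptor fell from 51.4 and 47.9 CPM in the WT lines to 14.8 and 15.5 CPM (log2 fold change -1.71, SE 0.084, edgeR adjusted p = 0.0052). Of the secretion list 21 of 35 genes fell and 0 rose, among them Hspa5 by 0.59 on the log2 scale (SE 0.084, edgeR adjusted p = 0.018). Pigr was at 1073 and 1673 CPM in WT and 485 and 871 CPM in Rptor fl/fl lines, and this difference did not pass (log2 fold change -1.02, SE 0.35, edgeR adjusted p = 0.10). Aldh1a1 fell by 0.60 (SE 0.12, edgeR adjusted p = 0.029) and Tgfb2, at under 1 CPM in each line, rose by 1.79 (SE 0.41, edgeR adjusted p = 0.042). Leaving out either WT line or Rptor fl/fl line 1 ended both of these calls.

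Between organoid footprints labelled Rptor fl/fl and SCe, which differ in culture medium as well as genotype, 16.5% of 10817 genes passed. Rptor itself was at 17.2, 18.7 and 15.9 CPM in the libraries labelled Rptor fl/fl and at 15.2, 41.8 and 21.0 CPM in SCe, with overlapping groups (log2 fold change -0.53, SE 0.34, edgeR adjusted p = 0.32). Ccl28 was at 28.2, 32.8 and 32.8 CPM in the former and 8.12, 11.9 and 7.39 CPM in SCe (log2 fold change 1.84, SE 0.24, edgeR adjusted p = 0.0024). Ccl25, a chemokine for gut-homing lymphocytes, and Aldh1a1 were also higher (log2 fold changes 1.29 and 0.96), and Tgfb1 was lower (-2.58). Markers of other cell types moved further: Vim, a filament protein of mesenchymal cells, was at 139, 234 and 806 CPM in SCe against 7.80, 4.44 and 4.98 CPM (log2 fold change -6.11, SE 0.71, edgeR adjusted p = 0.0015). Hbb-bs was at 120, 0.853 and 61.9 CPM in SCe against 2.32, 0.951 and 0.608 CPM (log2 fold change -5.62, SE 1.09, edgeR adjusted p = 0.010). Their part in the other differences was not tested. Pigr was at 2214, 2091 and 2245 against 233, 998 and 1091 CPM and did not pass (log2 fold change 1.50, SE 0.47, edgeR adjusted p = 0.063), although it did without SCe line 1 (log2 fold change 1.06). Only 3 of the 35 secretion genes passed, all lower.

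The summed constant region members stood at 15420, 15530 and 16720 CPM in WT and 14440, 15040 and 14070 CPM in Rptor fl/fl mice. The profiles over the 6 mice nearest to that of this sum belonged to genes with mean levels from 15.1 CPM (Upf3b) to 1580 CPM (Ces2e). By the root mean square difference of centred log2 CPM, Upf3b (0.029), Nomo1 (0.033), Iws1 (0.035), Cyp2d26 (0.036), Ddx24 (0.036), Rnf213 (0.038) and Ces2e (0.040) were among the closest, against a median of 0.24 over all tested genes other than immunoglobulin genes. With 6 libraries and a small difference between genotypes, such nearness describes nearly flat profiles.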

How the data were processed

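The authors quantified reads with Salmon 1.1.0 on GENCODE vM21 sequences (coding parts for footprints) after trimming with cutadapt 1.18, per the labels and methods, and deposited estimated counts and TPM per transcript. Transcript values of a gene were added up, technical RNA-seq libraries of a line were pooled, and the sums were rounded to whole counts. Genotypes were compared with edgeR 4.0.16 (R 4.3.3), a quasi-likelihood test after its expression filter and TMM scaling, with Benjamini-Hochberg adjustment over all genes tested and a threshold of 0.05, tested on simulated data. Make-up was computed per length of the indexed sequence, and with the deposited TPM values as an alternative. Wilson intervals are 95% and cover counting error. DESeq2 1.42.0 was an alternative. The members and gene lists were chosen with earlier results of these data known. The genes named were all members and, per list, up to 4 passing genes of smallest adjusted p (otherwise the 2 of highest CPM), a set of 12 genes always named, and the 8 nearest profiles, of which 1 is not reported here. A few other passing list genes were named after their values were seen. The deposited translation efficiency table holds the authors' own comparisons and was not used.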

Additional observations from a re-analysis of the deposited data

Results flagged for a closer look

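In 5 of 14 genes compared, every Rptor fl/fl mouse moved one way in the footprints and every Rptor fl/fl organoid line moved the other way in RNA-seq. Groups without overlap were 31.1% of all genes tested in mice and 69% in organoid RNA-seq, with 2 lines per genotype. Ccl28 passed the threshold in neither setting, Sdc1 did not pass in mice, and Pigr, Epcam and Tnfsf13b did not pass in organoids. The difference between the 2 settings was not tested. They differ in assay, in the Cre that was used, in the tissue and, per the methods, in the tamoxifen schedule. Pigr had a log2 fold change of 0.29 in mice and -1.02 in organoids. Ccl28 had 0.53 and -0.57, Epcam 0.23 and -0.26, and Tnfsf13b 1.096 and -0.87. Sdc1 had -0.19 in mice and 0.61 in organoids.

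Jchain had 9 reads in the RNA-seq library of SCe line 2, above the 3 reads that a count of 0 allows and from libraries that entered no comparison. In the other 10 organoid RNA-seq libraries it had 0 to 2 reads. No outlying library was found in the 21 groups of 4 organoid RNA-seq libraries that were examined, each group being 1 gene in 1 genotype.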

How the results depend on the processing

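Over 12 alternative settings, the log2 fold changes of Igha (-0.30 to -0.24), Jchain (-0.48 to -0.41), Iglc1 (-3.39 to -3.27), Iglc2 (-0.98 to -0.65), Ighg1 (-1.19 to -0.96), Ighm (-0.24 to -0.05), Igkc (0.17 to 0.39) and Ighg2b (0.19 to 0.42) kept their sign. The threshold of 0.01, counted among the 12, reuses the main fit, so it can change calls but no fold change. Leaving out 1 mouse gave -0.59 to 0.11 for Ighg3 (0.11 without WT mouse 1) and -0.30 to 1.604 for Lgr5 (-0.30 without Rptor fl/fl mouse 1), and Epcam in organoid footprints turned to -0.16 without SCe line 1. The count of called members was 4 to 6, with Igkc gained in 4 settings and Ighg1 and Iglc2 each lost in 2. In the main fit 13.4% of all genes were called. As the members were chosen with these values in view, nothing is read from their count here either. DESeq2 called 969 genes in mice, 22 in all lists, 1 in the plasma cell list and 0 in the secretion list, and 1 supply gene in organoid RNA-seq. At a threshold of 0.01 the mouse counts were 796, 18, 1 and 0, and RLE factors gave 1 secretion gene. With no count filter, 1 supply gene was called in organoid RNA-seq and 1 secretion gene in organoid footprints. With technical libraries as separate samples, organoid RNA-seq gave 7208 genes, 4 supply genes and 32 secretion genes.

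With the sample number as a replicate block, 1304 mouse genes were called (1 secretion gene), 4751 in organoid RNA-seq (5 supply genes) and 1229 in organoid footprints (0 secretion genes). Same-numbered samples did not deviate together in mice (correlations -0.005, 0.035 and 0.011) or organoid footprints (-0.046 to 0.029), and with 2 organoid RNA lines per genotype the correlation of 0.40 does not settle whether same-numbered lines are paired. The methods mention pairing without naming the lines. The block changed the call of no member.

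Leaving out 1 library at a time gave 897 (without Rptor fl/fl mouse 2) to 1954 (without Rptor fl/fl mouse 1) genes in mice, 20 to 45 over all lists, 0 to 3 in the plasma cell list and 0 to 5 in the secretion list. In organoid RNA-seq it gave 939 (without WT line 1) to 2126 genes, 0 to 2 supply genes and 10 to 15 secretion genes, where the single line left is assumed to vary like the other genotype. In organoid footprints it gave 669 (without Rptor fl/fl line 3) to 2682 (without SCe line 1) genes and 0 to 7 secretion genes.

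The Igha share of heavy chains by reads was 99.37% in WT and 99.26% in Rptor fl/fl mice. Jchain per 100 Igha was 22.2 and 19.5 by TPM and 9.07 and 8.03 by reads, and light chains per 100 heavy chains were 225 and 307 by TPM and 38.4 and 52.6 by reads, so ratios between genes of different length depend on the length used, while both stayed on the same side in each genotype. Depth limits Ighg1, Ighg2c, Ighg3, Iglc3 and Ighd most, with under 60 reads in any library.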
